A study of Mus musculus with 30 samples.

Results

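Mouse fibroblasts that had received a control plasmid were examined across 3 transfection experiments. The 9 control libraries were taken from the 30 libraries of the series by their label, 3 from each experiment. The cells are NIH3T3-CG, labelled as embryonic fibroblasts. NIH3T3 is an established line derived from mouse embryos. What the suffix CG stands for is not stated. The Prrx1/Snai1 controls accompany cells given plasmids for the transcription factors Prrx1 or Snai1, the Jun/Egr1 controls accompany Jun or Egr1, and the Srebf2 controls accompany Srebf2. No allele, drug or ligand is named for the control libraries, and the labels give neither a time after transfection nor the identity of the control plasmid in each experiment. All 9 come from 1 cell line, and nothing states whether replicates were separate cultures. The p-values therefore measure the spread between these libraries alone, and that spread may be technical. Each control group belongs to 1 experiment, so a difference between experiments and a difference between batches of cells or libraries cannot be told apart.

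Fibroblasts make and remodel the extracellular matrix: they secrete fibrillar collagens, which fibronectin and small proteoglycans organise, and they pull on it through actin fibres. NIH3T3 cells carry primary cilia and answer Hedgehog ligands, which bind Ptch1, release Smo and activate the Gli transcription factors. In spread cells under tension, serum response factor (SRF) and the YAP and TEAD factors drive cytoskeletal and matricellular genes. Interferon-stimulated genes are the response of most cells, fibroblasts included, to foreign nucleic acid, and Nrf2 drives the response to oxidants.

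The baseline was that of a matrix-producing fibroblast. Levels of different genes are compared in TPM, the length-scaled transcript abundance that kallisto gave the authors, as the mean of the 3 group means. Lgals1, a secreted galectin, was at 5349.7 TPM, Spp1 (osteopontin, a matrix and bone protein) at 3430.3 TPM, Vim (the intermediate filament vimentin) at 2680.1 TPM and Fn1 (fibronectin) at 1948 TPM. Col1a2, a chain of type I collagen, reached 1111 TPM and the proteoglycan Bgn 1055 TPM. The translation factor gene Eef1a1 had the highest level of all nuclear protein-coding genes, 7914 TPM, although only 51.4% of its transcript 31-mers occur in no other gene, which makes its value uncertain. Ftl1 (ferritin light chain, 45.5% unique 31-mers) stood at 6051 TPM and S100a4, a fibroblast calcium-binding protein (50.8%), at 5267 TPM. Of 22028 protein-coding genes, 10765 had at least 1 TPM in all 9 libraries and 12739 in any of them. At the upper end, 1312 nuclear coding genes had a mean of at least 100 TPM and 121 of at least 1000.

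Marker genes matched the labelled cell type. Of 20 fibroblast markers, 19 had at least 1 TPM in each of the 9 libraries, and their summed level was 14093 to 14628 TPM in the Prrx1/Snai1 controls, 10624 to 11291 in the Jun/Egr1 controls and 15624 to 16865 in the Srebf2 controls. Fap, the fibroblast activation protein gene, was the marker under that level. The 10 smooth muscle and myofibroblast markers summed to 263 to 743 TPM, lowest in the Jun/Egr1 controls. The 10 cartilage and bone markers summed to 3022 to 4121 TPM, with 3 or 4 of them at 1 TPM or more, and Spp1 above is among them. Markers of 4 other kinds of cell were low: 10 endothelial markers summed to 1.83 to 5.68 TPM, 8 pluripotency markers to 0.152 to 1.09, 8 adipocyte markers to 4.72 to 12.4 and 12 skeletal and heart muscle markers to 11.6 to 27.3. In bulk RNA, fewer cells of a type and less RNA per cell cannot be told apart.

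Total estimated counts were 19574031 to 20961571 in the Prrx1/Snai1 controls, 28567590 to 36470538 in the Jun/Egr1 controls and 18976760 to 20379388 in the Srebf2 controls. Levels of 1 gene across libraries are given below as CPM, the estimated counts set to a common library size by the trimmed mean of M values (TMM). Replicates of the Jun/Egr1 and Srebf2 controls were close to each other, with a median absolute log2 difference of 0.0667 to 0.0884 over 10265 genes with at least 5 CPM. Between experiments the same distance was 0.177 to 0.234 wherever a Jun/Egr1 control was involved, and 0.135 to 0.230 between the Prrx1/Snai1 and Srebf2 controls. The first principal component, 58.8% of the variance, set the Jun/Egr1 controls apart from the other 6 libraries, and the second, 18.9%, separated the Prrx1/Snai1 from the Srebf2 controls.

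**Figure D1:**
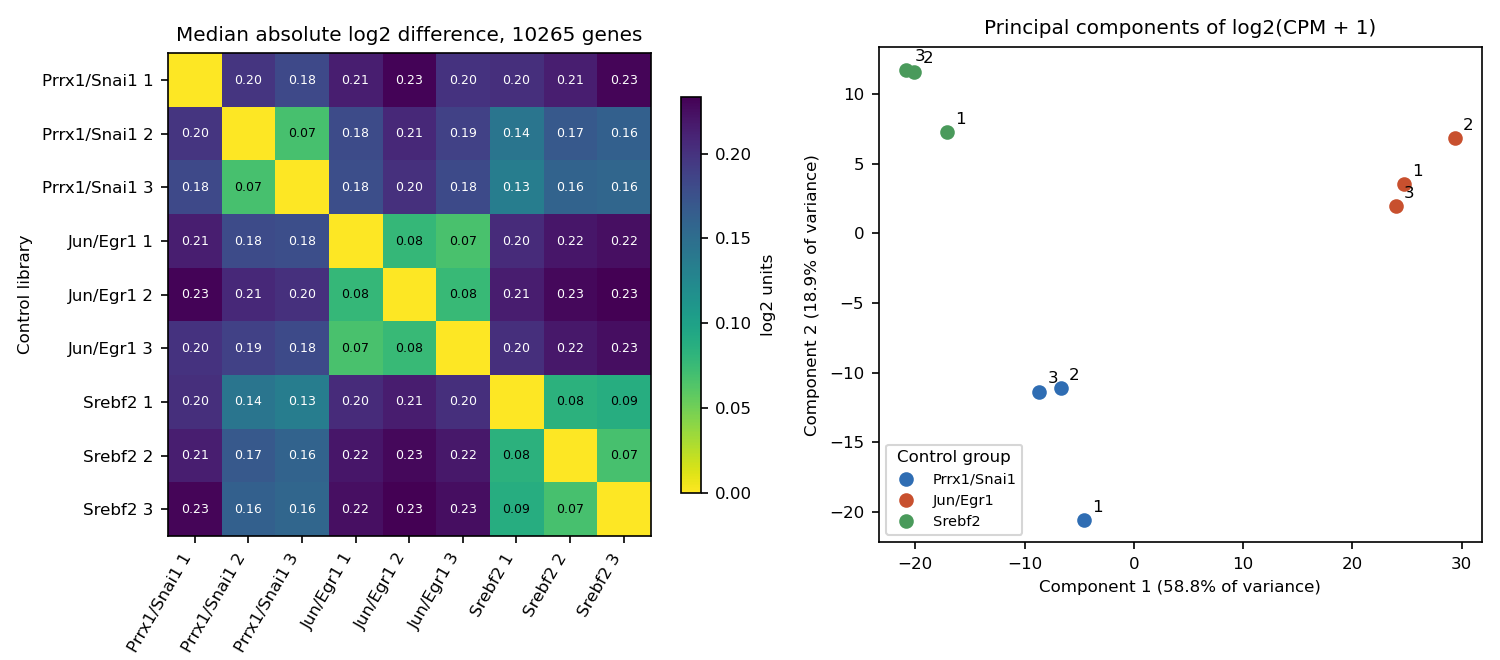
Left, median absolute log2 difference between each pair of the 9 control libraries over 10265 genes (log2 units, darker for larger). Right, the libraries on the first 2 principal components of log2(CPM + 1), coloured by control group and numbered by replicate. Replicates group by experiment on the components. By distance, Prrx1/Snai1 control 1 lies 0.18 to 0.20 from the other libraries of its group. Those are 0.07 from each other and 0.13 to 0.17 from the Srebf2 controls, nearer than to their own replicate 1.

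Prrx1/Snai1 control 1 stood apart from its group. It was 0.182 to 0.198 away from the other Prrx1/Snai1 controls, which were 0.0682 from each other, and of 729 genes whose replicate standard deviation (SD) in that group exceeded 0.3 it was the farthest replicate for 678 (93.0%). Its deviation followed transcript length. The median log2 difference from the other replicates was 0.207 in the shortest of 4 equal bins of genes by transcript length (median length 1180 bases), 0.0894 and -0.0343 in the next bins and -0.245 in the longest bin (4792 bases). In the Jun/Egr1 and Srebf2 libraries these medians lay between -0.0376 and 0.0395. Long transcripts show it singly. Tead1, a partner of YAP, was at 98.2, 189 and 183 CPM in the Prrx1/Snai1 controls, 163, 133 and 151 in the Jun/Egr1 controls and 194, 211 and 214 in the Srebf2 controls. Inhba, which encodes the activin A subunit, was at 105, 196 and 207 CPM in the Prrx1/Snai1 controls, 114, 88.4 and 104 in the Jun/Egr1 controls and 140.4, 138 and 148 in the Srebf2 controls. For both genes the low Prrx1/Snai1 value is that of replicate 1. Without that library 7791 genes differed between experiments where 5967 did with it.

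Jun/Egr1 control 2 held transcripts of neurons and of other specialised cells that were low or absent in the other 8 libraries. Over all libraries, 152 coding or long intergenic genes had at least 5 CPM in 1 library and at least 8 times the level of every other, and 149 of these were in that library. The others were Akp3 in Jun/Egr1 control 1 (10.1 CPM against at most 0.665), Ltf in Jun/Egr1 control 3 (19.1 against at most 2.0) and Pcdhgc4 in Prrx1/Snai1 control 1 (74.7 against at most 2.98). Map2, a microtubule protein of dendrites, was at 53.0045 CPM there and at most 0.195 CPM elsewhere. The neuronal kinesin gene Kif1a was at 35.4 CPM against at most 0.362, and Stmn2, a growth cone protein gene, at 31.4 against at most 1.04. Ttr, the transthyretin gene of liver and choroid plexus, was at 33.3 CPM against at most 0.501, and Rgr, a gene of the retinal pigment epithelium, at 31.7 against at most 0.724. The 10 neural and glial markers summed to 83.3 TPM in this library, with 7 of 10 at 1 TPM or more, and to 13.3 to 19.8 TPM in the others. The 10 immune markers summed to 34.2 TPM there and to 11.4 to 20.7 elsewhere. Its distance from the other Jun/Egr1 controls stayed within the range above. Of 141 genes whose replicate SD in that group exceeded 0.3, it was the farthest replicate for 97 (68.8%). Its fibroblast markers summed to 10624 TPM, the lowest of the 9 libraries. List counts below are therefore also given without both this library and Prrx1/Snai1 control 1 where the total of called members changes by more than 1.5 times. Leaving out this library does not remove every transcript of other tissues, since Apoa4 and Epcam (below) were found in each Jun/Egr1 control.

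**Figure D2:**
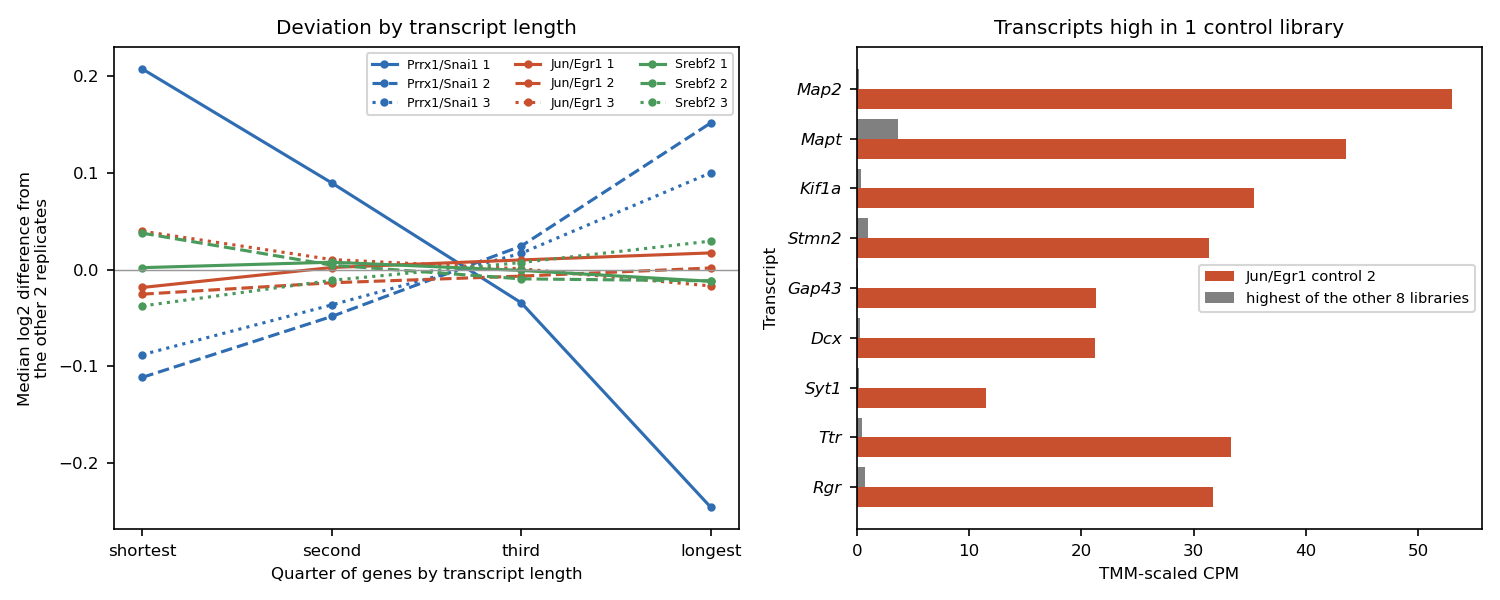
Left, median log2 difference of each control library from the other 2 replicates of its group, by bin of genes from the shortest to the longest transcripts. Prrx1/Snai1 control 1 runs from 0.207 to -0.245 and the Jun/Egr1 and Srebf2 libraries stay between -0.0376 and 0.0395. Right, CPM of 9 transcripts of neurons, retina or choroid plexus in Jun/Egr1 control 2 (red) and in the highest of the other 8 libraries (grey).

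Of 13227 genes tested, 5967 (45.1%) differed between the 3 control groups by edgeR's quasi-likelihood test at an adjusted p under 0.05. Most of the differences were small. Over the 3 group means of log2(CPM + 1), the median range was 0.449 among these genes. By that measure, which understates fold differences of scarce genes, 524 ranged over more than 2-fold and 73 over more than 4-fold. By edgeR's log2 differences, 791 called genes differed by more than 2-fold between the Jun/Egr1 and Srebf2 controls alone. That number was 535 between the Jun/Egr1 and Prrx1/Snai1 controls and 161 between the Srebf2 and Prrx1/Snai1 controls. The Jun/Egr1 controls held the highest of the 3 levels for 2460 (41.2%) of the 5967 genes and the lowest for 2423. Between the Jun/Egr1 and Prrx1/Snai1 controls 3881 genes (29.3%) differed, 1923 higher (14.5%) and 1958 lower (14.8%) in the Jun/Egr1 controls. Between the Srebf2 and Prrx1/Snai1 controls 2260 (17.1%) differed, 1096 higher (8.29%) and 1164 lower (8.8%) in the Srebf2 controls, and 3880 differed without Prrx1/Snai1 control 1 and Jun/Egr1 control 2. That count was 1103 without Srebf2 control 2 and 1093 without Srebf2 control 3. Between the Jun/Egr1 and Srebf2 controls 5300 (40.1%) differed, 2717 higher (20.5%) and 2583 lower (19.5%) in the Jun/Egr1 controls. On the TPM scale with limma, the higher share of called genes went from 49.5% to 36.2% for Jun/Egr1 over Prrx1/Snai1 controls and from 51.3% to 39.3% for Jun/Egr1 over Srebf2 controls. The median log2 difference over all genes tested was 0.013, 0.0053 and 0.0077 in these comparisons, in the order given, so list medians below can be read against about 0. Counts of list members called higher or lower can be read against the percentages above for the same comparison. The values of the 2 groups did not overlap for 42.8%, 35.1% and 59.3% of the genes tested, in the same order. Each control group enters 2 of the 3 comparisons, so they are not independent of each other, and their values are given side by side.

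The reporter transcripts were the first difference. The quantified targets include an added mScarlet sequence, a red fluorescent protein, and an added GFP sequence. mScarlet was at 13251, 9180.1 and 9925 CPM in the Prrx1/Snai1 controls, 34801, 39066 and 30936 CPM in the Jun/Egr1 controls and 9125, 10077 and 8642 CPM in the Srebf2 controls. All 3 Jun/Egr1 libraries were above the other 6, by 1.70 ± 0.14 (SE, adjusted p = 1.4e-05) in log2 units against the Prrx1/Snai1 controls and by 1.91 ± 0.14 (SE, adjusted p = 3.53e-06) against the Srebf2 controls. It made up 3.10 to 3.93% of the counts of a Jun/Egr1 control and 0.860 to 1.31% of those of the other controls. GFP was at 217, 186 and 186 CPM in the Prrx1/Snai1 controls, 300.04, 302 and 291 in the Jun/Egr1 controls and 184, 195 and 199.9 in the Srebf2 controls, and the Jun/Egr1 libraries were again the highest 3, by 0.60 ± 0.07 (SE, adjusted p = 8.77e-05) against the Prrx1/Snai1 controls. The files give the sequences by name only, and whether mScarlet is carried by the control plasmid is not stated.

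Of the 5 factors that the study delivers on plasmids, all 5 were lower in the Jun/Egr1 than in the Srebf2 controls, and 2, Snai1 and Jun, were lower in the Jun/Egr1 than in the Prrx1/Snai1 controls (4 of 5 without Prrx1/Snai1 control 1 and Jun/Egr1 control 2). The first count was 2 or 3 of 5 when any 1 of the Jun/Egr1 or Srebf2 controls was left out. Snai1 (chromosome 2, 167538195 to 167542814, plus strand, mm10), a repressor of epithelial genes, was at 92.04, 86.4 and 88.6 CPM in the Prrx1/Snai1 controls, 41.95, 34.4 and 40.5 in the Jun/Egr1 controls and 95.3, 101 and 104 in the Srebf2 controls. The Jun/Egr1 values did not overlap the others and were 2.28-fold lower than in the Prrx1/Snai1 controls, a log2 difference of -1.19 ± 0.08 (SE, adjusted p = 2.5e-06). Jun, an AP-1 subunit, was at 221, 301 and 301 CPM in the Prrx1/Snai1 controls, 202, 188 and 191 in the Jun/Egr1 controls and 253, 222 and 238 in the Srebf2 controls, again lowest in all 3 Jun/Egr1 libraries, with -0.50 ± 0.11 (SE, adjusted p = 0.00434) against the Prrx1/Snai1 controls. Srebf2, the master factor of cholesterol synthesis, was at 556, 565 and 546 CPM in the Prrx1/Snai1 controls, 521, 492 and 489.9 in the Jun/Egr1 controls and 569, 599 and 599.9 in the Srebf2 controls and differed over the 3 groups (adjusted p = 0.0112), a call lost on the TPM scale and without Jun/Egr1 control 3 (adjusted p = 0.0578). Egr1, an immediate early zinc finger factor, was at 187, 336 and 402 CPM in the Prrx1/Snai1 controls, 183, 154 and 195 in the Jun/Egr1 controls and 264, 324 and 379.8 in the Srebf2 controls, with wide replicates and no call over the 3 groups (adjusted p = 0.0517, but 0.00817 without Prrx1/Snai1 control 1, 0.0458 without Prrx1/Snai1 control 3 and 0.0407 without Srebf2 control 1). Prrx1, the mesenchymal homeobox factor, was at 471, 623 and 629 CPM in the Prrx1/Snai1 controls, 488, 428 and 497 in the Jun/Egr1 controls and 577, 572 and 573 in the Srebf2 controls (adjusted p = 0.0543, and 0.000149 without Prrx1/Snai1 control 1, its lowest value in that group).

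Hedgehog genes were expressed at unequal baselines. Of 17 list members 12 passed the filter on low counts. Of these 12, 1 was higher and 5 were lower in the Jun/Egr1 than in the Prrx1/Snai1 controls (median log2 difference -0.14), and 3 were higher and 1 lower in the Srebf2 than in the Prrx1/Snai1 controls (0.17). Over all genes tested, 14.5% were higher and 14.8% lower in the first comparison, and 8.29% and 8.8% in the second. Among the receptors, Gas1, a co-receptor that helps ligand reach Ptch1 (chromosome 13, 60174405 to 60177365, minus strand), was at 112, 107 and 114 CPM in the Prrx1/Snai1 controls, 155, 139 and 158 in the Jun/Egr1 controls and 213, 217 and 224 in the Srebf2 controls. The 3 groups did not overlap, and the Srebf2 controls were 1.97-fold higher than the Prrx1/Snai1 controls, 0.98 ± 0.06 (SE, adjusted p = 3.15e-05) in log2 units. Ptch1, the ligand receptor, was at 16.4, 25.9 and 25.6 CPM in the Prrx1/Snai1 controls, 24.4, 24.02 and 21.8 in the Jun/Egr1 controls and 24.8, 24.4 and 25.2 in the Srebf2 controls. Its groups overlapped with no call (adjusted p = 0.713). Smo, the signal transducer, was at 278, 240.2 and 241 CPM in the Prrx1/Snai1 controls, 258, 239.99 and 254 in the Jun/Egr1 controls and 237, 230.3 and 235 in the Srebf2 controls, with none either (adjusted p = 0.311, but 0.0364 without Prrx1/Snai1 control 1 and Jun/Egr1 control 2). Disp1, which releases ligand from producing cells, was lower in all Jun/Egr1 libraries, with 10.6, 9.98 and 11.7 CPM against 21.3, 21.3 and 22.002 in the Prrx1/Snai1 controls, -0.999 ± 0.10 (SE, adjusted p = 2.86e-05) in log2 units.

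Among the transcription factors of the pathway, Gli1, an activator and itself a target, was at 6.03, 6.75 and 5.48 CPM in the Prrx1/Snai1 controls, 3.03, 2.07 and 2.25 in the Jun/Egr1 controls and 4.37, 3.21 and 3.72 in the Srebf2 controls. The order was the same for every library of the 3 groups, with -1.31 ± 0.19 (SE, adjusted p = 0.000463) for Jun/Egr1 and -0.69 ± 0.19 (SE, adjusted p = 0.0296) for Srebf2 against the Prrx1/Snai1 controls, and both rest on levels of only a few CPM. The call over the 3 groups was lost on the TPM scale (adjusted p = 0.0657 by limma on log2(TPM + 1)). Gli2, the main activator, was at 19.4, 22.7 and 22.5 CPM in the Prrx1/Snai1 controls, 14.003, 10.05 and 13.8 in the Jun/Egr1 controls and 27.5, 26.1 and 28.1 in the Srebf2 controls. The Jun/Egr1 controls differed from the Prrx1/Snai1 controls by -0.77 ± 0.12 (SE, adjusted p = 0.000724), and the Srebf2 controls, with the highest 3 values, by 0.34 ± 0.12 (SE, adjusted p = 0.0742). Sufu, an inhibitor that holds Gli proteins back, was lower in the Jun/Egr1 controls, a log2 difference of -0.38 ± 0.06 (SE, adjusted p = 0.00109). Gli3, the main repressor, did not pass the test (adjusted p = 0.0516), but did without Prrx1/Snai1 control 1 (0.00402) or 2 (0.0362). Hhip, a target, and Cdkn2a, the locus that immortal fibroblasts often lose, were at 0 counts in all 6 Prrx1/Snai1 and Srebf2 controls. Neither was at 0 in all 9 libraries, so both had counts in at least 1 Jun/Egr1 control. Those libraries had more counts in total, 28567590 to 36470538, than the other 6. Jun/Egr1 control 2 also held transcripts of other cells. Whether the counts of Hhip and Cdkn2a came from the fibroblasts was not tested.

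**Figure D3:**
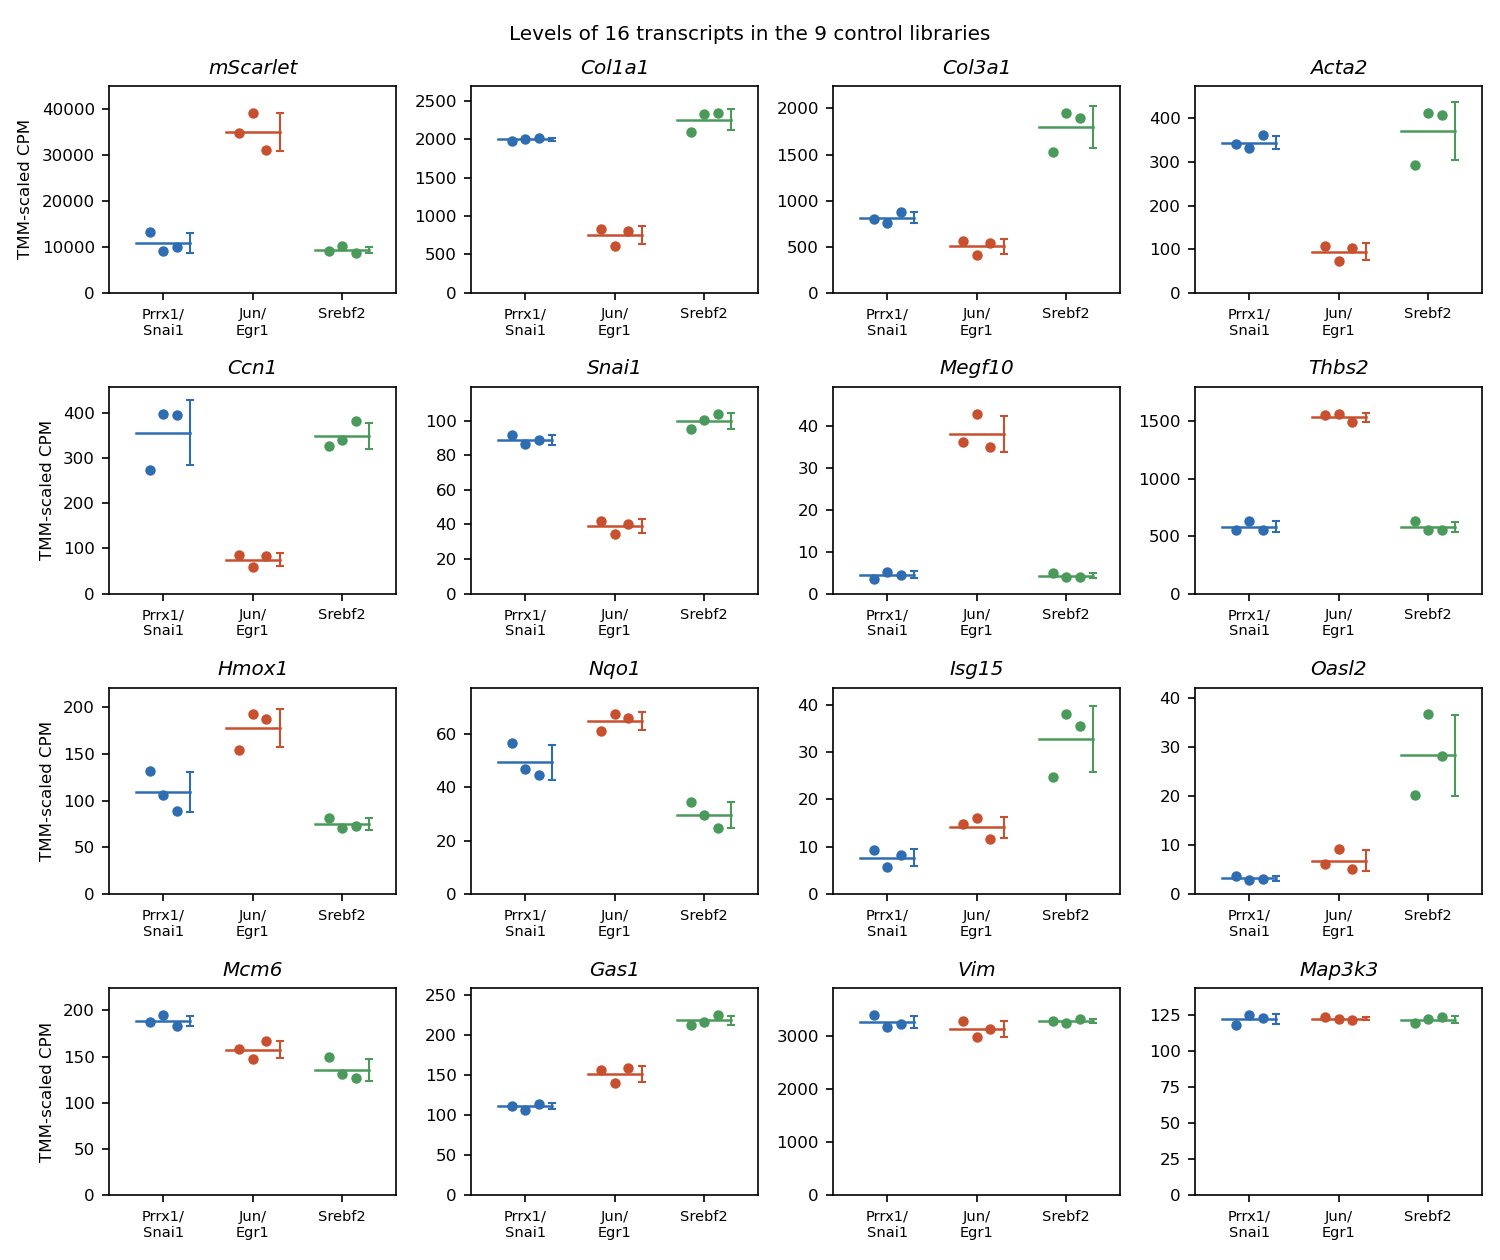
TMM-scaled CPM of 16 transcripts in the 9 control libraries. Points are libraries, horizontal lines group means and brackets the SD over 3 libraries. Col1a1, Acta2, Ccn1 and Snai1 are lowest in the Jun/Egr1 controls, mScarlet, Megf10 and Thbs2 highest there, Isg15 and Oasl2 highest in the Srebf2 controls, and Vim and Map3k3 overlap in all groups.

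Matrix genes were lower in the Jun/Egr1 controls. Of 19 fibroblast markers tested, 14 were lower and 1 was higher than in the Prrx1/Snai1 controls, with a median log2 difference of -0.69. Against the Srebf2 controls 16 were lower and 1 was higher (-1.02). Col1a1, the other chain of type I collagen (chromosome 11, 94936224 to 94953042, plus strand), was at 1973, 2009.9 and 2018 CPM in the Prrx1/Snai1 controls, 826, 614 and 809.7 in the Jun/Egr1 controls and 2095, 2332 and 2345 in the Srebf2 controls. Every Jun/Egr1 library was far below the other 6, 2.67-fold lower than the Prrx1/Snai1 controls (-1.42 ± 0.10 SE, adjusted p = 4.78e-06 in log2 units).

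Collagens also separated the Srebf2 from the Prrx1/Snai1 controls. Of 18 collagen genes tested, 12 were higher and 0 lower in the Srebf2 controls (median 0.44), while the Jun/Egr1 controls had 9 lower and 3 higher than the Prrx1/Snai1 controls (-0.18). Col3a1, which forms thin fibrils with type I collagen, was at 798, 762 and 878 CPM in the Prrx1/Snai1 controls, 563, 407 and 539 in the Jun/Egr1 controls and 1532, 1951 and 1900.1 in the Srebf2 controls. The 3 groups did not overlap, and the Srebf2 controls were 1.14 ± 0.13 (SE, adjusted p = 0.000422) and the Jun/Egr1 controls -0.69 ± 0.13 (SE, adjusted p = 0.0022) from the Prrx1/Snai1 controls in log2 units. Col5a1, which sets fibril diameter, stood in the same order at 367, 409 and 436 CPM in the Prrx1/Snai1 controls, 207, 154 and 201 in the Jun/Egr1 controls and 580.5, 674 and 673 in the Srebf2 controls. As a share of all counts, collagens took 0.980 ± 0.0318% (SD, n = 3) in the Prrx1/Snai1 controls, 0.611 ± 0.0502% in the Jun/Egr1 controls and 1.35 ± 0.0938% in the Srebf2 controls. The exact permutation test over the 1680 assignments of the 9 libraries to 3 groups gave p = 0.00357 for that share, the smallest it can give, and 0.00893 after adjustment over 5 shares.

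Proteins that bind and organise the fibrils followed. Of 7 small leucine-rich proteoglycans tested, 4 were lower and 0 higher in the Jun/Egr1 than in the Prrx1/Snai1 controls (median -0.72). Lum (lumican), which spaces collagen fibrils, was at 39.1, 45.7 and 43.8 CPM in the Prrx1/Snai1 controls, 15.2, 11.5 and 13.8 in the Jun/Egr1 controls and 55.1, 56.6 and 60.9 in the Srebf2 controls. These groups did not overlap, and the Jun/Egr1 controls were -1.66 ± 0.10 (SE, adjusted p = 1.54e-06) in log2 units from the Prrx1/Snai1 controls and -2.09 ± 0.10 (SE, adjusted p = 2.7e-07) from the Srebf2 controls. Matricellular and adhesive glycoproteins had 11 of 19 lower and 2 higher (-0.55). Fbln2, an elastic fibre protein, was at 1393, 1456 and 1426 CPM in the Prrx1/Snai1 controls, 677, 508 and 691 in the Jun/Egr1 controls and 1392, 1486 and 1515 in the Srebf2 controls, lowest in each Jun/Egr1 library (-1.19 ± 0.10 SE, adjusted p = 1.4e-05 against the Prrx1/Snai1 controls). Thbs2, the matricellular thrombospondin 2, ran the other way: 555, 634 and 549 CPM in the Prrx1/Snai1 controls, 1551, 1564 and 1491 in the Jun/Egr1 controls and 629, 552 and 553 in the Srebf2 controls. The Jun/Egr1 libraries were 2.65-fold higher than the Prrx1/Snai1 controls without overlap (1.41 ± 0.07 SE, adjusted p = 6.02e-07), while the Srebf2 and Prrx1/Snai1 values overlapped.

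Proteases and their inhibitors had 7 of 17 members lower and 1 higher in the Jun/Egr1 than in the Prrx1/Snai1 controls (median -0.21). Over all genes tested, 14.8% were lower and 14.5% higher. Mmp9, a gelatinase, was scarce and ordered by experiment, at 7.74, 7.13 and 8.41 CPM in the Prrx1/Snai1 controls, 2.45, 1.47 and 2.16 in the Jun/Egr1 controls and 9.73, 15.3 and 16.1 in the Srebf2 controls. Timp1, an inhibitor of such proteases, was lower in the Jun/Egr1 controls, a log2 difference of -0.79 ± 0.07 (SE, adjusted p = 1.82e-05).

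Actin cytoskeleton genes that SRF drives were lower in the Jun/Egr1 controls. Of 20 tested, 15 were lower and 0 higher than in the Prrx1/Snai1 controls (median -0.43), 18 were lower than in the Srebf2 controls (-0.44), and 0 members differed between the Srebf2 and Prrx1/Snai1 controls by edgeR's test (0.05502). Without Prrx1/Snai1 control 1 and Jun/Egr1 control 2 that last count was 2 higher and 2 lower of 20. Acta2, smooth muscle actin, was at 342, 331 and 361 CPM in the Prrx1/Snai1 controls, 107, 73.2 and 103 in the Jun/Egr1 controls and 294, 412 and 408 in the Srebf2 controls. The Jun/Egr1 controls were 3.64-fold lower than the Prrx1/Snai1 controls with no overlap (-1.86 ± 0.16 SE, adjusted p = 3.31e-05). Zyx, which encodes zyxin of focal adhesions, was at 786, 795 and 776 CPM in the Prrx1/Snai1 controls, 447, 367 and 445 in the Jun/Egr1 controls and 813, 858 and 856 in the Srebf2 controls (-0.90 ± 0.08 SE, adjusted p = 1.19e-05 for Jun/Egr1 against Prrx1/Snai1 controls). Actg1, cytoplasmic gamma actin, was at 2858, 2796 and 2862 CPM in the Prrx1/Snai1 controls, 1763, 1594 and 1662 in the Jun/Egr1 controls and 2919, 2990.4 and 3018 in the Srebf2 controls with 61.00000000% unique 31-mers, so its level is uncertain. The 10 smooth muscle markers, which overlap this list, summed to 596 to 684 TPM in the Prrx1/Snai1 controls, 263 to 324 in the Jun/Egr1 controls and 603 to 743 in the Srebf2 controls.

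The promoters of 2 called members show the letters that SRF is known to read, the CArG box, searched on both strands in the 250 bases before each start (RefSeq, GRCm38.p6). It occurred in 482 of 32851 promoters (1.47%) and in 8 of the 17 list members with a promoter entry. Promoters were counted by entry but list members by gene, with any matching entry enough, so these shares are unlike measures. Cnn2, a calponin of actin fibres (chr10:79988350-79988599, plus strand, ending 46 bases before the start), and Srf itself (chr17:46556163-46556412, minus strand, the nearer of 2 matches ending 52 bases before the start) are shown 5′ to 3′, with the match in capitals.
Cnn2: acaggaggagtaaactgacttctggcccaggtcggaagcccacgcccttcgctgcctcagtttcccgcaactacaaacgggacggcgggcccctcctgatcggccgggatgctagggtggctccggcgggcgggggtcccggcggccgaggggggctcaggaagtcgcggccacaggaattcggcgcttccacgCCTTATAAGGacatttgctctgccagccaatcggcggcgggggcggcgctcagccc
Srf: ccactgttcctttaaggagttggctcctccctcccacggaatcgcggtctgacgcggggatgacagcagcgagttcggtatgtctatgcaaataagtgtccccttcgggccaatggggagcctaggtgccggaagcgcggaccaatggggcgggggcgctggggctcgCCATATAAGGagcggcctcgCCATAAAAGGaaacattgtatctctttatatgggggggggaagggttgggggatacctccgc
Srf was at 77.6, 73.4 and 74.9 CPM in the Prrx1/Snai1 controls, 64.001, 59.97 and 61.2 in the Jun/Egr1 controls and 79.6, 80.1 and 83.4 in the Srebf2 controls, and Cnn2 at 263, 222 and 255 CPM in the Prrx1/Snai1 controls, 175, 164 and 175 in the Jun/Egr1 controls and 259.6, 295 and 282 in the Srebf2 controls. For both genes the Jun/Egr1 values lay below all others. These 2 promoters were chosen after the values were seen, as the called members with the smallest p that hold the box, leaving out Actg1 for its shared sequence. A match describes the sequence and shows no binding.

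YAP and TEAD targets, which respond to tension and cell spreading, had 6 of 11 members lower and 0 higher in the Jun/Egr1 than in the Prrx1/Snai1 controls (median -0.31) and 10 lower than in the Srebf2 controls (-0.75). Ccn1, a secreted matricellular protein gene (chromosome 3, 145646976 to 145649981, minus strand), was at 273, 399 and 397 CPM in the Prrx1/Snai1 controls, 84.7, 58.01 and 82.7 in the Jun/Egr1 controls and 327, 339.8 and 381 in the Srebf2 controls. The Jun/Egr1 controls were 4.73-fold lower than the Prrx1/Snai1 controls (-2.24 ± 0.18 SE, adjusted p = 2.6e-05), with the other groups overlapping. Ankrd1, a nuclear ankyrin repeat protein gene, was at 189, 241 and 228 CPM in the Prrx1/Snai1 controls, 69.1, 51.8 and 68.4 in the Jun/Egr1 controls and 161, 164 and 178 in the Srebf2 controls (-1.80 ± 0.12 SE, adjusted p = 3.83e-06), lowest in each Jun/Egr1 library.

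Growth and biosynthesis lists also held more lower than higher members in that group. Immediate early genes had 11 of 26 lower and 0 higher in the Jun/Egr1 than in the Prrx1/Snai1 controls (median -0.36). Myc, the growth factor-induced oncogene, was at 188, 201 and 201 CPM in the Prrx1/Snai1 controls, 112, 89.7 and 103 in the Jun/Egr1 controls and 188, 189 and 200.3 in the Srebf2 controls. The Jun/Egr1 values were the lowest 3 (-0.95 ± 0.08 SE, adjusted p = 9.59e-06 against the Prrx1/Snai1 controls). Mitosis genes had 10 of 24 lower and 0 higher (-0.23), and cholesterol genes 15 of 24 lower and 1 higher (-0.32). Nsdhl, an enzyme of late sterol synthesis, was at 257, 253 and 241 CPM in the Prrx1/Snai1 controls, 196, 174 and 162 in the Jun/Egr1 controls and 206, 204 and 212 in the Srebf2 controls, lowest in the Jun/Egr1 libraries. Integrated stress and unfolded protein genes had 16 of 26 lower and 1 higher (-0.26). Slc7a5, an amino acid transporter gene, was at 153, 152 and 149 CPM in the Prrx1/Snai1 controls, 88.5, 77.97 and 83.1 in the Jun/Egr1 controls and 115, 143 and 143 in the Srebf2 controls, with no overlap between the Jun/Egr1 controls and the rest.

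Antioxidant genes of the Nrf2 response were higher in the Jun/Egr1 and lower in the Srebf2 controls. Of 17 tested, 9 were higher and 0 lower in the Jun/Egr1 than in the Prrx1/Snai1 controls (median 0.27), 9 were lower and 0 higher in the Srebf2 than in the Prrx1/Snai1 controls (-0.42), and 16 were higher in the Jun/Egr1 than in the Srebf2 controls (0.76). Gclc, the catalytic subunit of the enzyme that limits glutathione synthesis, was at 54.3, 53.9 and 53.5 CPM in the Prrx1/Snai1 controls, 72.9, 78.98 and 77.1 in the Jun/Egr1 controls and 48.5, 40.8 and 43.9 in the Srebf2 controls. The 3 groups did not overlap, with a log2 difference of 0.50 ± 0.07 (SE, adjusted p = 0.000285) for the Jun/Egr1 controls and -0.28 ± 0.07 (SE, adjusted p = 0.0193) for the Srebf2 controls against the Prrx1/Snai1 controls. Its regulatory subunit gene Gclm was at 153, 149.7 and 138 CPM in the Prrx1/Snai1 controls, 163, 169 and 178 in the Jun/Egr1 controls and 98.8, 81.6 and 80.6 in the Srebf2 controls, and the Srebf2 libraries were -0.75 ± 0.08 (SE, adjusted p = 0.000325) from the Prrx1/Snai1 controls. Gsta4, a glutathione transferase for lipid peroxides, was at 60.8, 45.96 and 42.9 CPM in the Prrx1/Snai1 controls, 84.8, 100.2 and 96.98 in the Jun/Egr1 controls and 41.7, 43.3 and 39.1 in the Srebf2 controls, with the Jun/Egr1 libraries above all others (0.91 ± 0.12 SE, adjusted p = 0.0002). Metallothionein genes, which answer metals and oxidants, were uneven: Mt2 was at 33.2, 89.7 and 17.2 CPM in the Prrx1/Snai1 controls, 153, 146 and 155 in the Jun/Egr1 controls and 34.98, 15.1 and 16.7 in the Srebf2 controls. The Jun/Egr1 libraries were the highest 3 and close together, while the Prrx1/Snai1 libraries were far apart.

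The core of the antioxidant response element, TGACNNNGC, was found on either strand in 3338 of 32851 promoters (10.2%) and, counted by gene as above, in 4 of the 13 list members with an entry. The promoter of Gclm (chr3:122245307-122245556, plus strand, GRCm38.p6, RefSeq) is shown with its match in capitals, ending 125 bases before the start.
Gclm: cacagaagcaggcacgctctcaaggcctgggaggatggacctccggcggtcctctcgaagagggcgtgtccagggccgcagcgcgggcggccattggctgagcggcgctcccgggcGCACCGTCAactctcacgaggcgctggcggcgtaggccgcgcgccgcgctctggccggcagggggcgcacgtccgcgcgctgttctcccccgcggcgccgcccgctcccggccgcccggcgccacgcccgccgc
It was chosen as the member with the smallest p among those that hold the letters.

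Nuclear genes of the respiratory chain were higher in the Jun/Egr1 controls, and mitochondrially encoded genes were lower. Of 33 nuclear members, 20 were higher and 0 lower than in the Prrx1/Snai1 controls (median 0.27). Ndufs1, the largest subunit of complex I, was at 123, 126 and 129.9 CPM in the Prrx1/Snai1 controls, 152, 156 and 149.5 in the Jun/Egr1 controls and 115, 116 and 109.8 in the Srebf2 controls. The Jun/Egr1 libraries were the highest 3, by 0.27 ± 0.05 (SE, adjusted p = 0.00277) against the Prrx1/Snai1 controls. Of 13 mitochondrially encoded genes, 11 were lower and 0 higher in the Jun/Egr1 controls (-0.47), and 8 were higher and 0 lower in the Srebf2 than in the Prrx1/Snai1 controls (0.42). mt-Nd5, a complex I subunit with 83.2% unique 31-mers, was at 1229.9, 1082 and 1034 CPM in the Prrx1/Snai1 controls, 905, 849.9 and 889.97 in the Jun/Egr1 controls and 1646, 1649 and 1786 in the Srebf2 controls, in 3 groups that did not overlap. These genes took 2.18 ± 0.229% of the counts (SD, n = 3) in the Prrx1/Snai1 controls, 1.38 ± 0.04996% in the Jun/Egr1 controls and 3.02 ± 0.170% in the Srebf2 controls. The exact permutation p was 0.00357, the smallest possible, and 0.00893 adjusted.

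Ribosomal protein genes took 4.53 ± 0.476%, 4.04 ± 0.141% and 4.80 ± 0.226% of the counts in the Prrx1/Snai1, Jun/Egr1 and Srebf2 controls (SD, n = 3, exact permutation p = 0.0929, and 0.0134 after adjustment without Prrx1/Snai1 control 1). Of 80 tested, 26 were lower and 9 higher in the Jun/Egr1 than in the Prrx1/Snai1 controls (median -0.16), and without Prrx1/Snai1 control 1 and Jun/Egr1 control 2 the count was 18 higher and 22 lower of 80 (median -0.034), so the lean to lower depends on those libraries. Between the Srebf2 and Prrx1/Snai1 controls 3 were higher and 6 lower, and without Prrx1/Snai1 control 1 and Jun/Egr1 control 2 the count became 38 higher and 7 lower of 80. These are short transcripts, and replicate 1 of the Prrx1/Snai1 controls had the highest ribosomal share, 5.07% of its counts.

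Large single-gene differences of the Jun/Egr1 controls included genes outside these lists. Megf10, an engulfment receptor of glia and muscle precursors, was at 3.59, 5.27 and 4.47 CPM in the Prrx1/Snai1 controls, 36.3, 43.03 and 35.1 in the Jun/Egr1 controls and 4.94, 4.04 and 3.87 in the Srebf2 controls. All 3 Jun/Egr1 libraries were above the rest, 8.56-fold higher than the Prrx1/Snai1 controls (3.10 ± 0.14 SE, adjusted p = 2.37e-07). Arhgap6 (88.7% unique 31-mers) was at 2.18, 2.25 and 0.961 CPM in the Prrx1/Snai1 controls, 16.8, 19.4 and 19.04 in the Jun/Egr1 controls and 1.31, 0.881 and 0.694 in the Srebf2 controls, likewise without overlap (3.36 ± 0.25 SE, adjusted p = 6.48e-06). Gpnmb, a lysosomal and melanosomal glycoprotein gene, was at 1.195, 0.622 and 0.528 CPM in the Prrx1/Snai1 controls, 5.79, 9.98 and 6.08 in the Jun/Egr1 controls and 0.526, 0.726 and 0.397 in the Srebf2 controls (3.22 ± 0.34 SE, adjusted p = 5.03e-05). Apoa4, an intestinal and liver apolipoprotein gene, had 0 counts in all Prrx1/Snai1 and Srebf2 controls and 12.2, 4.796 and 3.49 CPM in the Jun/Egr1 controls. It passed the filter on low counts through the Jun/Egr1 controls alone, so its call there adds nothing to these values. That call was lost without Prrx1/Snai1 control 1 and Jun/Egr1 control 2 (adjusted p = 0.256 by edgeR). Spock2, Dmbt1 and Atp1b1 were uneven within the Jun/Egr1 controls: Spock2 was at 0.501, 13.8 and 0.771 CPM, high in replicate 2 alone, Dmbt1 at 17.1, 5.04 and 0.987 CPM and Atp1b1, with 83.1% unique 31-mers, at 11.8, 43.7 and 7.96 CPM. Their calls were lost when any 1 Prrx1/Snai1 control was left out (adjusted p = 0.139 for Spock2, 0.0633 for Dmbt1 and 0.0590 for Atp1b1 without replicate 1), and that of Spock2 also without Srebf2 control 2 (0.0585) or 3 (0.0544). On the lower side, Igf2, the fetal growth factor gene (38.1% unique 31-mers), was at 118, 135 and 121 CPM in the Prrx1/Snai1 controls, 17.2, 15.02 and 21.5 in the Jun/Egr1 controls and 107, 149 and 144 in the Srebf2 controls. All 3 Jun/Egr1 libraries lay below the other 6.

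Epithelial markers were higher in the Jun/Egr1 controls, at low levels. The 12 markers summed to 9.28 to 14.7 TPM there, 1.81 to 2.33 in the Prrx1/Snai1 controls and 0.352 to 0.795 in the Srebf2 controls. All 6 members tested were higher in the Jun/Egr1 controls, but those other than Krt8 passed the filter on low counts through that group. Krt8, a simple epithelial keratin (67.7% unique 31-mers), was at 2.29, 2.01 and 2.07 CPM in the Prrx1/Snai1 controls, 5.01, 5.04 and 3.36 in the Jun/Egr1 controls and 0.684, 0.415 and 0.645 in the Srebf2 controls. The groups did not overlap. Epcam, a cell adhesion protein gene of epithelia, had 0 counts in the 6 other libraries and 2.14, 1.79 and 0.895 CPM in the Jun/Egr1 controls. Whether these transcripts have a part in the other differences of that group was not tested.

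Interferon-stimulated genes were higher in the Srebf2 controls, and less so in the Jun/Egr1 controls. Of 27 tested, 21 were higher and 0 lower than in the Prrx1/Snai1 controls (median 1.44), and 16 were higher and 1 lower in the Jun/Egr1 than in the Prrx1/Snai1 controls (0.64). Without Prrx1/Snai1 control 1 and Jun/Egr1 control 2 the latter count was 11 higher and 1 lower of 27. Isg15, a ubiquitin-like modifier gene (86.9% unique 31-mers), was at 9.25, 5.697 and 8.21 CPM in the Prrx1/Snai1 controls, 14.7, 16.03 and 11.6 in the Jun/Egr1 controls and 24.8, 37.9 and 35.5 in the Srebf2 controls. The 3 groups did not overlap, and the Srebf2 controls were 4.25-fold higher than the Prrx1/Snai1 controls (2.09 ± 0.21 SE, adjusted p = 0.000272). Bst2, which tethers enveloped viruses, was at 11.3, 9.095 and 8.599 CPM in the Prrx1/Snai1 controls, 14.003, 17.9 and 13.3 in the Jun/Egr1 controls and 25.7, 37.6 and 34.3 in the Srebf2 controls in the same order (1.75 ± 0.17 SE, adjusted p = 0.000155). Gbp3, an interferon-inducible GTPase gene, was at 1.92, 2.11 and 1.54 CPM in the Prrx1/Snai1 controls, 4.79, 4.201 and 3.24 in the Jun/Egr1 controls and 6.102, 10.9 and 9.72 in the Srebf2 controls (2.26 ± 0.25 SE, adjusted p = 0.00029). In all 3 genes replicate 1 was the lowest of the Srebf2 controls.

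Upstream regions of those 3 genes hold the core of the interferon-stimulated response element, GAAANNGAAA, searched on both strands in the 250 bases before the start. It occurred in 978 of 32851 promoters (2.98%) and, counted by gene as above, in 10 of the 23 list members with an entry. They are given 5′ to 3′ from RefSeq (GRCm38.p6), matches in capitals, and lie at chr8:71537473-71537722 (minus strand, 2 matches), chr4:156200819-156201068 (minus strand, 3 overlapping matches) and chr3:142559794-142560043 (plus strand, 2 matches).
Bst2: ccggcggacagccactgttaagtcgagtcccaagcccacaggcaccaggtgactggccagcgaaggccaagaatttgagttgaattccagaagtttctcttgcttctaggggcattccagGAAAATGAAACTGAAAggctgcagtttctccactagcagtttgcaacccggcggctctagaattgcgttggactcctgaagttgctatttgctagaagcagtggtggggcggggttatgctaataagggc
Isg15: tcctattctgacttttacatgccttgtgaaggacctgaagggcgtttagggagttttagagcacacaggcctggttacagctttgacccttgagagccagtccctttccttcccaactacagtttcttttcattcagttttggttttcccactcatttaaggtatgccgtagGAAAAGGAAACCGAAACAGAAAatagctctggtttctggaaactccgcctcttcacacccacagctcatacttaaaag
Gbp3: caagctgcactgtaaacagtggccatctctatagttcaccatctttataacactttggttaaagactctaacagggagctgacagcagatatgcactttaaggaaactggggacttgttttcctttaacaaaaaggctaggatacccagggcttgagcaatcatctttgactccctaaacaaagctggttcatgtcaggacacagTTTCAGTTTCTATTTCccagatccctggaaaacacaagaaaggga
The match nearest the start ends 114, 56 and 29 bases before it, in the same order. They were chosen after the values were seen, as the called members with the smallest p that hold the letters.

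The list was not uniform. Ifi44, an interferon-induced GTP-binding protein gene, was at 0.156, 0.431 and 0.384 CPM in the Prrx1/Snai1 controls, 0.919, 1.26 and 0.617 in the Jun/Egr1 controls and 4.79, 6.58 and 8.13 in the Srebf2 controls. It was 19.6-fold higher in the Srebf2 than in the Prrx1/Snai1 controls (4.29 ± 0.39 SE, adjusted p = 0.000129), from levels under 1 CPM. Irf1, a transcription factor of the response, was at 41.8, 38.9 and 40.7 CPM in the Prrx1/Snai1 controls, 30.4, 26.1 and 30.7 in the Jun/Egr1 controls and 68.1, 80.2 and 76.5 in the Srebf2 controls, so the Jun/Egr1 controls were lowest (-0.48 ± 0.08 SE, adjusted p = 0.00148) and the Srebf2 controls highest (0.89 ± 0.08 SE, adjusted p = 0.000129). Ifit2, which binds viral RNA, was at 40.7, 40.1 and 43.7 CPM in the Prrx1/Snai1 controls, 75.9, 78.2 and 75.9 in the Jun/Egr1 controls and 39.7, 45.9 and 43.1 in the Srebf2 controls, higher in the Jun/Egr1 controls alone (0.89 ± 0.07 SE, adjusted p = 6.48e-06 against the Prrx1/Snai1 controls). Usp18, which removes Isg15 from proteins, was 12.5-fold higher in the Srebf2 and 4.67-fold higher in the Jun/Egr1 controls than in the Prrx1/Snai1 controls. The 10 immune cell markers summed to 11.4 to 13.6 TPM in the Srebf2 controls and to 16.2 TPM or more in the other libraries. NF-kB targets and chemokines had 9 of 19 higher and 0 lower in the Srebf2 than in the Prrx1/Snai1 controls (median 0.35). Over all genes tested, 8.29% were higher and 8.8% lower in that comparison. Ccl9, a chemokine gene, was at 34.5, 33.1 and 36.3 CPM in the Prrx1/Snai1 controls, 15.5, 12.4 and 13.7 in the Jun/Egr1 controls and 55.4, 60.2 and 61.4 in the Srebf2 controls in 3 groups that did not overlap.

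**Figure D4:**
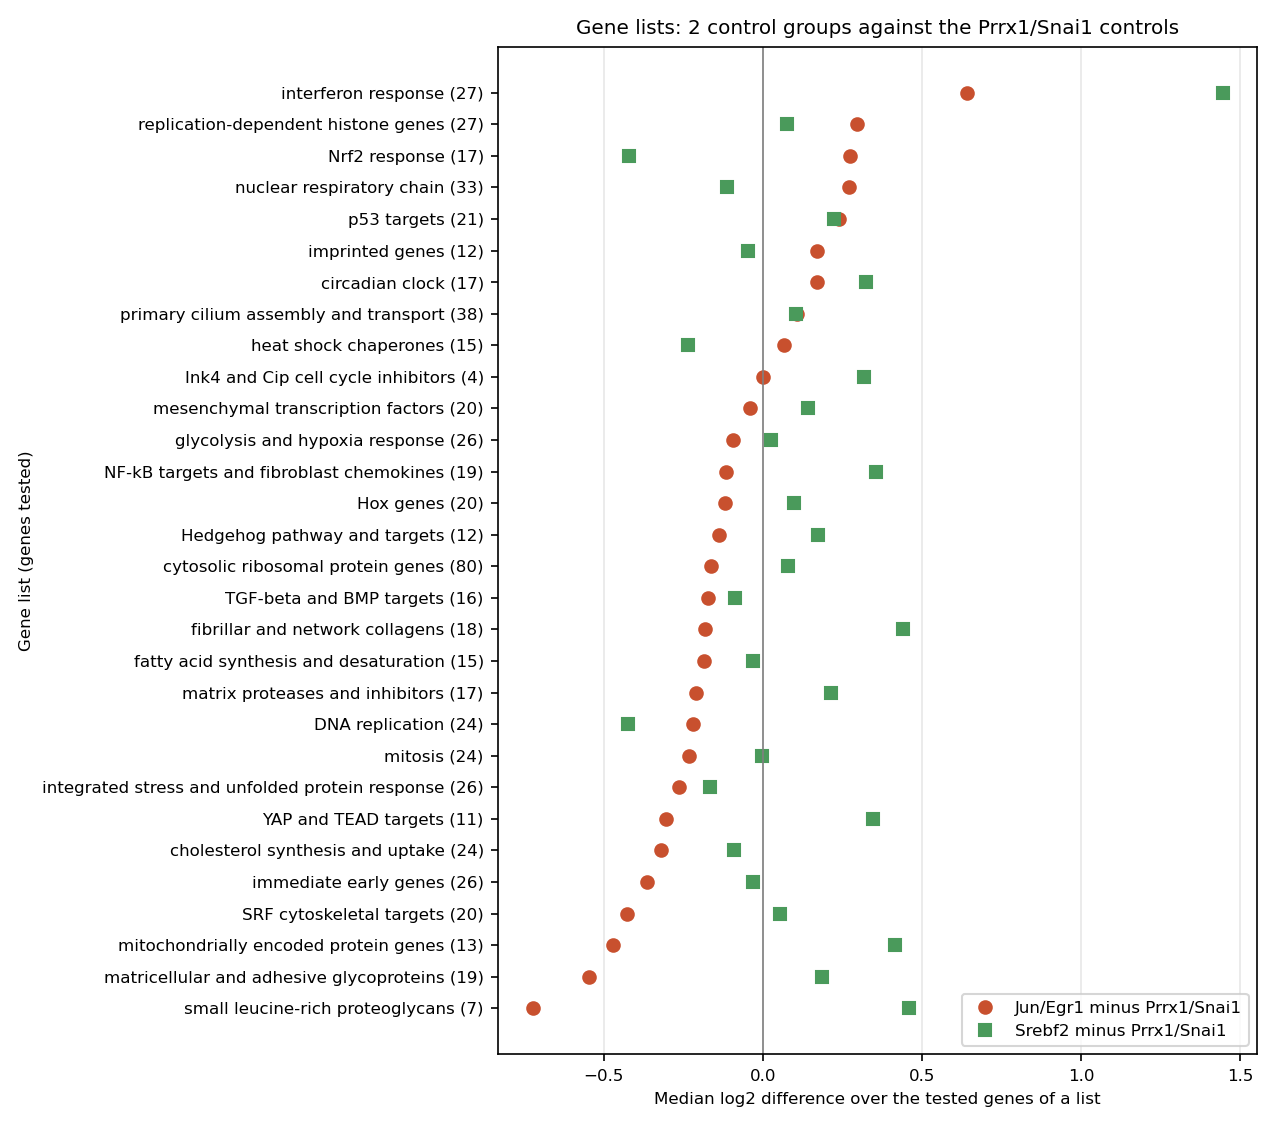
Median log2 difference over the tested genes of 30 gene lists (number tested in brackets), for the Jun/Egr1 (red circles) and Srebf2 (green squares) controls against the same Prrx1/Snai1 controls. Interferon genes reach 1.44 in the Srebf2 controls, Nrf2 genes lie at 0.27 and -0.42, and the small leucine-rich proteoglycans at -0.72 and 0.46. For the Jun/Egr1 controls, the medians of the heat shock, NF-kB, imprinted, mesenchymal factor and Ink4/Cip lists changed sign in at least 1 other setting. For the Srebf2 controls, those of the mitosis, immediate early, glycolysis, histone, imprinted, Hox and TGF-beta lists did so.

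DNA replication genes were lower in the Srebf2 controls. Of 24 tested, 19 were lower and 0 higher than in the Prrx1/Snai1 controls (median -0.43), and 9 were lower and 0 higher in the Jun/Egr1 than in the Prrx1/Snai1 controls (-0.22). Mcm3, a subunit of the replicative helicase, was at 244, 245 and 240.5 CPM in the Prrx1/Snai1 controls, 229, 229 and 241 in the Jun/Egr1 controls and 191, 161 and 159.8 in the Srebf2 controls. The Srebf2 libraries were the lowest 3, with a log2 difference of -0.51 ± 0.07 (SE, adjusted p = 0.000963) from the Prrx1/Snai1 controls. Ccne1, the cyclin of the G1/S transition, was at 44.2, 42.4 and 41.3 CPM in the Prrx1/Snai1 controls, 36.4, 34.8 and 37.6 in the Jun/Egr1 controls and 28.1, 23.998 and 22.5 in the Srebf2 controls, without overlap between groups (-0.78 ± 0.09 SE, adjusted p = 0.000325 for Srebf2 against Prrx1/Snai1 controls). Cdkn1b and Cdkn1a, inhibitors of cyclin-dependent kinases, were higher in the Srebf2 controls by 0.50 ± 0.06 (SE, adjusted p = 0.000483) and 0.48 ± 0.08 (SE, adjusted p = 0.00216). Mitosis genes had 0 higher and 1 lower of 24 in this comparison, and 1 higher and 3 lower of 24 without Prrx1/Snai1 control 1 and Jun/Egr1 control 2. Heat shock chaperones had 9 of 15 lower and 1 higher (median -0.24), and Cryab, a small chaperone (85.2% unique 31-mers), was at 154, 123 and 119 CPM in the Prrx1/Snai1 controls, 163, 178 and 178 in the Jun/Egr1 controls and 77.01, 81.3 and 71.97 in the Srebf2 controls, lowest in the Srebf2 libraries.

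Among single genes outside the lists, Brinp3, a gene of the nervous system, was at 0.208, 0.527 and 0.721 CPM in the Prrx1/Snai1 controls, 0.223, 0.4901 and 0.278 in the Jun/Egr1 controls and 5.79, 6.95 and 8.28 in the Srebf2 controls. It was present at more than 5 CPM in the Srebf2 controls and below 1 CPM in the rest (3.83 ± 0.39 SE, adjusted p = 0.000177 against the Prrx1/Snai1 controls). Hes1, a Notch target, was at 16.6, 15.7 and 15.9 CPM in the Prrx1/Snai1 controls, 6.46, 7.18 and 8.58 in the Jun/Egr1 controls and 8.21, 3.99 and 3.97 in the Srebf2 controls, highest in the Prrx1/Snai1 controls (-1.58 ± 0.24 SE, adjusted p = 0.00177 for Srebf2 and -1.12 ± 0.22 (SE, adjusted p = 0.00374) for Jun/Egr1). Gfra1, a receptor for glial cell line-derived neurotrophic factor, was at 10.6, 10.96 and 10.5 CPM in the Prrx1/Snai1 controls, 24.1, 23.9 and 22.7 in the Jun/Egr1 controls and 6.05, 4.66 and 4.41 in the Srebf2 controls. Its 3 groups did not overlap, with 1.14 ± 0.10 (SE, adjusted p = 1.89e-05) for Jun/Egr1 and -1.09 ± 0.12 (SE, adjusted p = 0.000272) for Srebf2 against the Prrx1/Snai1 controls. Npr3, the natriuretic peptide clearance receptor gene, was at 33.4, 45.05 and 47.7 CPM in the Prrx1/Snai1 controls, 12.7, 9.56 and 11.6 in the Jun/Egr1 controls and 17.9, 18.4 and 19.7 in the Srebf2 controls and was highest in the Prrx1/Snai1 controls. Stra6, the retinol uptake receptor gene, was at 14.3, 15.3 and 12.9 CPM in the Prrx1/Snai1 controls, 10.7, 13.7 and 13.8 in the Jun/Egr1 controls and 5.84, 4.98 and 5.85 in the Srebf2 controls, low only in the Srebf2 controls (-1.35 ± 0.13 SE, adjusted p = 0.000155).

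Factor-plasmid libraries of the same experiments carried some of these differences, given as levels without a test. Col1a1 was at 749 ± 124 CPM (SD, n = 3) in the Jun/Egr1 controls, 904 ± 59.6 with the Jun plasmid and 805 ± 66.6 with the Egr1 plasmid. The Prrx1/Snai1 controls were at 2006 ± 32.3 CPM, with 1886 ± 184 for Prrx1 and 2139 ± 129 for Snai1, so controls and factor libraries of an experiment were closer to each other than to those of the Jun/Egr1 experiment. Megf10 was at 38.1 ± 3.86, 36.2 ± 1.96 and 39.9 ± 4.97 CPM in the control, Jun and Egr1 libraries, and at 4.45 ± 0.855, 5.55 ± 0.0877 and 5.67 ± 0.803 CPM in the control, Prrx1 and Snai1 libraries. mScarlet did not follow: it was at 34843 ± 3753 CPM in the Jun/Egr1 controls and 3109.8 ± 354 and 2338 ± 496 with the Jun and Egr1 plasmids. With the Srebf2 plasmid it was at 543 ± 52.9 CPM against 9334 ± 725 in its controls, and with Prrx1 and Snai1 at 13547 ± 2441 and 10146 ± 536 against 10811 ± 2126. Map2, the marker of the neural transcripts in Jun/Egr1 control 2, was at 0.382 ± 0.0666 and 0.696 ± 1.001 CPM with the Jun and Egr1 plasmids.

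**Figure D5:**
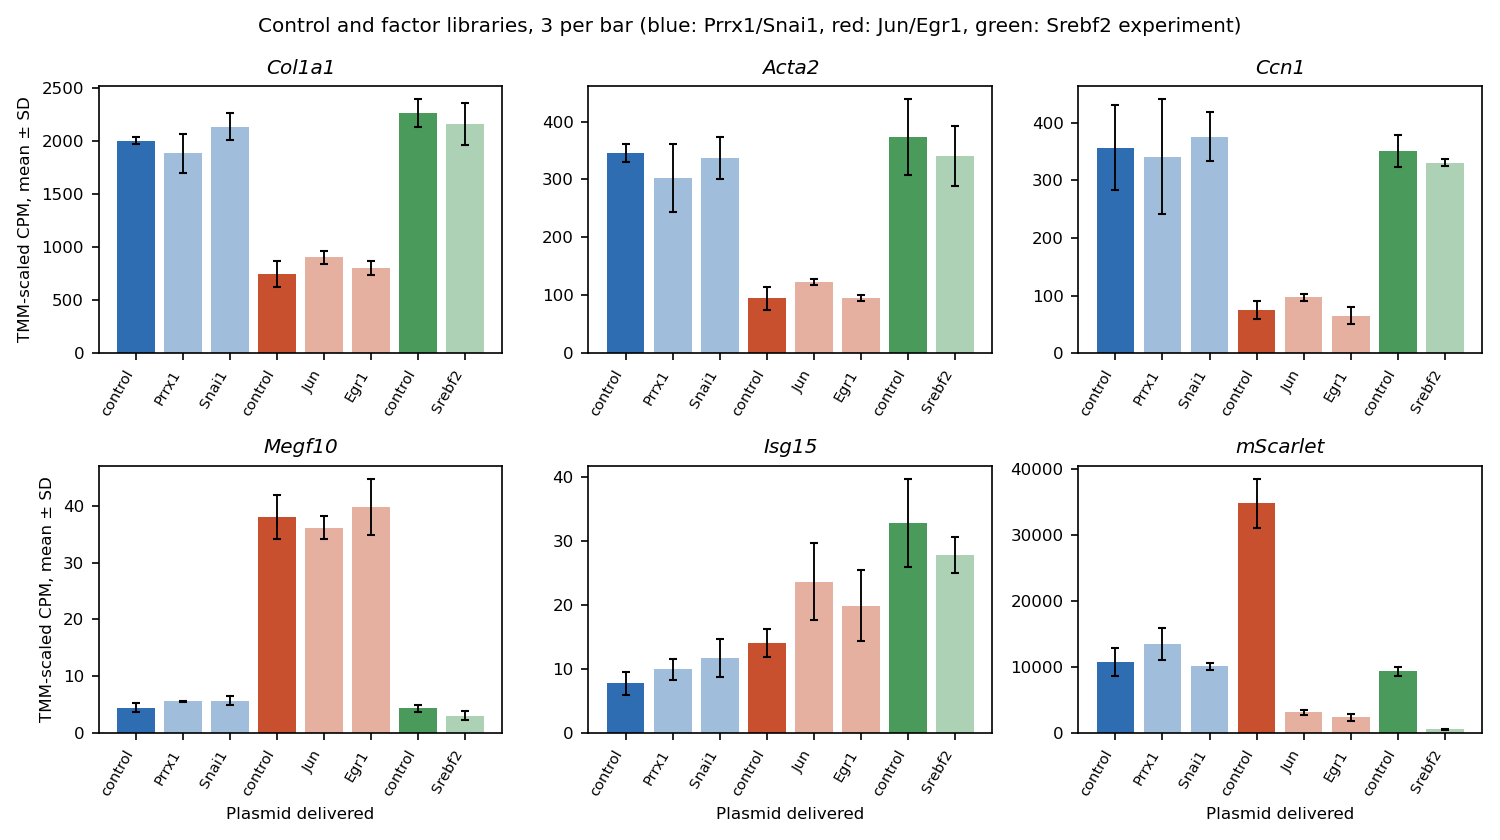
TMM-scaled CPM, mean and SD over 3 libraries, of 6 transcripts in the control groups (dark bars) and in the factor-plasmid groups of the same experiment (light bars), scaled over all 24 transfection libraries. For Col1a1, Acta2, Ccn1 and Megf10 the 3 groups of the Jun/Egr1 experiment sit together and apart from the other 5, and mScarlet is highest in the Jun/Egr1 controls.

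Replicate error set how much of this can be seen. The median replicate SD of log2(CPM + 1) over 10265 genes was 0.124 in the Prrx1/Snai1 controls, 0.0637 in the Jun/Egr1 controls and 0.0698 in the Srebf2 controls, and the SD between the 3 group means had a median of 0.147. The SD between experiments exceeded the pooled replicate SD for 6860 genes (66.8%) and was more than 3 times as large for 1693. Among the most variable genes between replicates, Pcdhgc4, a protocadherin with 62.6% unique 31-mers, was at 74.7, 0.814 and 0.432 CPM in the Prrx1/Snai1 controls, high in replicate 1 alone. Clu, a secreted chaperone gene, was at 14.3, 28.04 and 3.02 CPM in the Jun/Egr1 controls and 4.57, 3.69 and 3.89 in the Prrx1/Snai1 controls, so the Jun/Egr1 spread covered the other group's range. At the steady end, Map3k3, a kinase of stress signalling, was at 118, 125 and 123 CPM in the Prrx1/Snai1 controls, 123, 122 and 121 in the Jun/Egr1 controls and 119, 122 and 124 in the Srebf2 controls. Vim was at 3392, 3168 and 3235 CPM in the Prrx1/Snai1 controls, 3279, 2988 and 3138 in the Jun/Egr1 controls and 3275, 3239 and 3314 in the Srebf2 controls and did not pass the test (adjusted p = 0.56). In both genes all 3 groups overlapped.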

How the data were processed

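Bulk mRNA of NIH3T3-CG cells was sequenced at Novogene, per the labels' protocols. The submitters' processing notes name kallisto 0.43.0 and the mm10 build. Library layout, strand and annotation release are not given in the sources used here. Each deposited file lists, per transcript, an estimated count and a TPM value that the authors obtained with kallisto. Both were summed per gene here, after matching 116816 of 118491 targets by transcript identifier. The unmatched targets held 0.625 to 0.676% of the counts.

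Estimated counts were rounded and tested with edgeR 4.0.16 (limma 3.58.1, R 4.3.3): TMM scaling, a filter on low counts (filterByExpr, minimum count 10, minimum total 15), a robust quasi-likelihood fit over the 9 controls, 1 test of any difference and 3 contrasts, with Benjamini-Hochberg adjustment over all 13227 genes and a threshold of 0.05. Shares of counts were compared by exact permutation tests (Python 3.11.15). Alternatives used DESeq2 1.42.0, limma on log2(TPM + 1), other filters, thinned counts and left-out libraries. The scripts were tested on simulated data. Replicates were not duplicates of each other (chi-square per degree of freedom 3.99 to 31.2).

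Genes were named by rule: the 20 nuclear coding genes with the highest TPM; per contrast, the 8 higher and 8 lower coding genes with the largest change among those past the threshold, with groups that do not overlap, a mean of 5 CPM or more on the higher side and a name that is not a predicted one; the 15 coding genes with the widest replicates and the 10 steadiest; up to 4 called members per list with the smallest p and the 4 with the highest TPM; and the 5 delivered factors, Gli1, Gli2, Gli3, Ptch1, Smo, Cdkn2a, GFP and mScarlet. Akp3, Bst2, Cnn2, Fap, Hhip, Ltf, Srf, Tead1, Kif1a, Rgr and Ttr fall outside it and were chosen after their values were seen. Some genes that the rule names are not reported here. The controls and the lists were chosen with earlier results of these data known. The factor-plasmid libraries of the same experiments entered only as levels, and the transduced libraries were not used.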

Additional observations from a re-analysis of the deposited data

How the results depend on the processing

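Between 2794 and 5293 genes differed between the Jun/Egr1 and Prrx1/Snai1 controls when 1 library was left out, 1093 to 3366 between the Srebf2 and Prrx1/Snai1 controls, 4000 to 6814 between the Jun/Egr1 and Srebf2 controls, and 4735 to 7791 over the 3 groups. The upper end of each range came without Prrx1/Snai1 control 1. limma on log2(TPM + 1) without a filter on low values called 2268, 867, 3320 and 3525 genes in the same order, and limma with the filter called 1471 (pseudocount 1) and 1451 (pseudocount 0.1) between the Srebf2 and Prrx1/Snai1 controls. Leaving out Prrx1/Snai1 control 1 together with Jun/Egr1 control 2, chosen after seeing the data, gave 3880 in that comparison. The cause of these shifts was not tested. DESeq2, other size factors, other filters on counts, thinned counts, coding genes alone and genes with mostly unique sequence kept the counts within 1.5 times.

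Deviations of same-numbered libraries of different experiments from their group means had correlations of -0.190 to 0.144. For libraries with different numbers these were -0.302 to 0.324. No pairing by number was seen, which does not show that there was none. With a replicate block 5399 genes differed over the 3 groups, 3496, 1871 and 4937 in the 3 comparisons.

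The ribosomal share had an adjusted exact permutation p of 0.0223 as a share of TPM, 0.299 over genes with at least 90% unique 31-mers and 0.0134 to 0.2 with 1 library left out. The share of replication-dependent histone genes (adjusted p = 0.0119) had 0.164 as a share of TPM, 0.354 over the genes with such sequence and 0.00595 to 0.0580 with 1 library left out. The share of the 50 most abundant genes (adjusted p = 0.0313) had 0.0214 to 0.0982, and the mitochondrial and collagen shares 0.00595 to 0.00893, each with 1 library left out. The mitochondrial share had 0.0238 over genes with such sequence. Of 48 pairs of a named gene and a contrast, 11 lost the call in some setting and 0 reversed.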

Other observations

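Other lists described further differences between the control groups. Of 21 p53 targets tested, 9 were higher and 3 lower in the Jun/Egr1 than in the Prrx1/Snai1 controls (median log2 difference 0.24), and 10 were higher and 1 lower in the Srebf2 than in the Prrx1/Snai1 controls (0.22). Mdm2, the ubiquitin ligase that limits p53, was at 159, 159 and 165 CPM in the Prrx1/Snai1 controls, 243, 258 and 226 in the Jun/Egr1 controls and 169, 165 and 162 in the Srebf2 controls. Clock genes had 7 of 17 higher and 4 lower in the Jun/Egr1 controls, and 8 higher and 1 lower in the Srebf2 controls, both against the Prrx1/Snai1 controls. For both lists, the shares over all genes tested were 14.5% higher and 14.8% lower for Jun/Egr1, and 8.29% and 8.8% for Srebf2. Dbp, a clock output factor gene, was at 5.56, 4.36 and 4.804 CPM in the Prrx1/Snai1 controls, 8.21, 10.2 and 9.23 in the Jun/Egr1 controls and 9.31, 12.6 and 11.7 in the Srebf2 controls, and Per2, a repressor of the clock, at 4.37, 4.07 and 5.52 CPM in the Prrx1/Snai1 controls, 7.21, 7.25 and 7.899 in the Jun/Egr1 controls and 11.2, 13.4 and 12.1 in the Srebf2 controls.

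Fatty acid synthesis genes had 7 of 15 lower and 0 higher in the Jun/Egr1 than in the Prrx1/Snai1 controls (-0.18), and 2 higher and 10 lower of 15 without Prrx1/Snai1 control 1 and Jun/Egr1 control 2. TGF-beta and BMP targets had 6 of 16 lower and 2 higher (-0.17), where 14.8% of all genes tested were lower and 14.5% higher. Ltbp2, a latent TGF-beta binding protein gene of elastic fibres, was at 41.5, 45.8 and 52.1 CPM in the Prrx1/Snai1 controls, 18.5, 16.7 and 17.4 in the Jun/Egr1 controls and 54.4, 66.2 and 68.3 in the Srebf2 controls. Primary cilium genes, on which Hedgehog signalling depends, had 5 of 38 higher and 0 lower in the Jun/Egr1 controls, and 3 higher and 2 lower in the Srebf2 controls (8 higher and 0 lower, and 7 higher and 3 lower, without Prrx1/Snai1 control 1 and Jun/Egr1 control 2). With all libraries, the share called was below the 29.3% of all genes tested for the Jun/Egr1 controls. For the Srebf2 controls it was near the 17.1% of all genes tested. Of 20 Hox genes, which keep a record of body position, 2 were higher and 4 lower in the Jun/Egr1 controls, a share near the 29.3% of all genes tested. Hoxd8 was at 39.6, 40.6 and 40.02 CPM in the Prrx1/Snai1 controls, 30.5, 28.7 and 31.3 in the Jun/Egr1 controls and 44.1, 45.9 and 47.1 in the Srebf2 controls.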
